A study of Mus musculus with 36 samples.

Results

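Glutamate is the main excitatory transmitter of the brain, and it is sensed at synapses by ionotropic receptors, which are ion channels opened by glutamate, and by metabotropic receptors, which act through G proteins. NMDA, kainate and AMPA receptors are the classical ionotropic classes, while delta receptors share their architecture but act largely as synaptic organisers. These receptors are known for their roles in neurons, and several of their genes are among the very long genes of the mouse genome, so that a single gene collects enough lesions to be measured by itself. Described here are 8 of them, chosen by symbol out of the 49943 genes annotated on the autosomes and sex chromosomes: Grid1, Grik1, Grik2, Grin2a, Grin2b, Grm5, Grm7 and Grm8. All 8 belong to the 590 genes of at least 300 kb. The other 18 genes of the family, among them 5 of at least 300 kb, served as the list of relatives.

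The lesions were mapped in male C57BL/6J mice aged 24 months, with 2 animals, no treatment and no genetic alteration. Bone marrow freed of red cells, brain, heart, liver, peripheral blood mononuclear cells (PBMCs, isolated on Ficoll) and motile sperm of the epididymal tail were profiled with 2 libraries per tissue for single-strand breaks (SSBs, by SSiNGLe) and 2 for abasic (AP) sites (positions where the DNA strand has lost its base, by SSiNGLe-AP), giving 24 libraries. Both assays of a replicate used DNA of the same tissue sample, and sperm DNA was purified with a different kit from the DNA of the other tissues, so that kit and tissue cannot be told apart for sperm. Each library pools the cells of a tissue, so that more lesions in some of its cells and slightly more lesions in all of them cannot be told apart, and the lists hold no marker by which the identity of a tissue could be checked. The SSB libraries held 225011 to 1041983 lesion positions (median 410489) and the AP libraries 460719 to 963258 (median 739741).

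Lesion levels were expressed as LPKM, which is 1000000000 times the positions in a gene over the product of its length in bp and the library's total, counted over exons and introns on both strands. The spans, given here on GRCm38 from RefSeq, were 763 kb for Grid1 (chr14:34820003-35583387), 395 kb for Grik1 (chr16:87895901-88290863), 696 kb for Grik2 (chr10:49093680-49790161, minus strand) and 428 kb for Grin2a (chr16:9567901-9996083). Grin2b spanned 460 kb (chr6:135713221-136173615), Grm5 551 kb (chr7:87583981-88135063), Grm7 922 kb (chr6:110645349-111567230, plus strand) and Grm8 860 kb (chr6:27275121-28135146, minus strand). The strand was given for 3 of the 8 genes in the annotation used here. Other genes, 1 to 5 per span, overlap these spans, the longest of them 91381 bp (4930590A17Rik, at Grik1), and their lesions are part of the values below.

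Promoter windows of 300 bases, 250 before and 50 after an annotated start, were matched for the same 3 genes, from RefSeq on GRCm38. They are shown because they give the single-nucleotide data directly: each capital letter marks a nucleotide at which at least 1 of the 24 libraries held a lesion on either strand, read 5′ to 3′ along the gene. The Grik2 window (chr10:49788705-49789004, minus strand) held no SSB position and 5 AP positions at 4 nucleotides. The first Grm7 window (chr6:110645262-110645561, plus strand) held 2 SSB positions and 1 AP position, and the Grm8 window with the most marks (chr6:28134372-28134671, minus strand) held 3 SSB and 4 AP positions at 7 nucleotides.
Grik2: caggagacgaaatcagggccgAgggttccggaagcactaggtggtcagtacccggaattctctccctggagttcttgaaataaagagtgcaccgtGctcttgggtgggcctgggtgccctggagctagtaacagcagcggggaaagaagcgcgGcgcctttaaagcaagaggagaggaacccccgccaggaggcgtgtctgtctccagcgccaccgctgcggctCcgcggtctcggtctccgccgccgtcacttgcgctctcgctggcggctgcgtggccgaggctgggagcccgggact
Grm7: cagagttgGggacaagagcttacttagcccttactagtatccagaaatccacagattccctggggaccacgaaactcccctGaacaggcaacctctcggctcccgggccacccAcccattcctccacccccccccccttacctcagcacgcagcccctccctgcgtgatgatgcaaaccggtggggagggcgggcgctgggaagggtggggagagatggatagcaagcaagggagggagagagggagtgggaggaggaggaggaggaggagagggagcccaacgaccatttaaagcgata
Grm8: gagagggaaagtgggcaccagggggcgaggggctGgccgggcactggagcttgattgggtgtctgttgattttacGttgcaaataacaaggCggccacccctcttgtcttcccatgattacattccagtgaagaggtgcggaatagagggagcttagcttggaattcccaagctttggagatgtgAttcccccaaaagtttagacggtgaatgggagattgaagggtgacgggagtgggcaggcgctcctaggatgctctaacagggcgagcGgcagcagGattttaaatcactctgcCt

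Only the A at base 22 of the Grik2 window was seen in 2 libraries, the AP libraries of bone marrow replicate 1 and brain replicate 1, while every other marked nucleotide of these windows came from 1 library. The Grik2 window had no SSB position in 12 libraries, and 28.5% of all 32851 promoter windows had none either. Summed over the 12 libraries of an assay, a promoter window held on average 2.05 SSB and 2.13 AP positions, so that the windows of the 3 genes stood within the few counts that any promoter of this length collected. A total of 0 positions allows up to 3 positions by counting error alone.

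Lesion levels differed widely among the 8 genes, and both assays ranked them almost alike. Grin2b, which encodes an NMDA receptor subunit prominent in early development, had the highest mean level, with 0.642 ± 0.0717 LPKM for SSBs and 0.668 ± 0.0541 for AP sites (SD, n = 12 libraries). Grik2, a kainate receptor subunit, had the lowest, with 0.208 ± 0.0365 and 0.170 ± 0.0305. Their library ranges were 0.534 to 0.803 against 0.166 to 0.287 LPKM for SSBs, so the groups did not overlap.

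Between these extremes stood Grid1, a delta receptor of synapses, with 0.504 ± 0.0515 LPKM for SSBs and 0.562 ± 0.0267 for AP sites. Grin2a, the NMDA receptor subunit that becomes prominent after birth, had 0.463 ± 0.0678 and 0.523 ± 0.0303, and the kainate receptor gene Grik1 had 0.449 ± 0.0463 and 0.474 ± 0.0535. The SSB ranges of Grid1 (0.444 to 0.622), Grin2a (0.331 to 0.575) and Grik1 (0.354 to 0.505) overlapped, so their order was not fixed by these libraries.

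The metabotropic genes among those chosen, Grm5, Grm7 and Grm8, stood low. The class as a whole did not, as its other genes had mean SSB levels from 0.348 to 1.07 LPKM. Grm8 and Grm7, both inhibitory group III receptors that couple to the lowering of cyclic AMP, had 0.293 ± 0.0412 and 0.289 ± 0.0362 LPKM for SSBs and 0.313 ± 0.0440 and 0.319 ± 0.0395 for AP sites. Grm5, a group I receptor that signals through phospholipase C, had 0.215 ± 0.0569 and 0.198 ± 0.0261. The library ranges of Grm7 and Grm8 overlapped over most of their width in both assays, and those of Grm5 and Grik2 overlapped as well.

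Among the genes tested, those of at least 300 kb had a lower median level than all genes together. Genes with positions in too few libraries were not tested. At the same level, a short gene is left out by this filter more readily than a long gene. The filter can thus raise the median over all genes, and its share in the difference was not tested. The median mean level was 0.628 LPKM for SSBs over 38486 tested genes and 0.430 over the 590 genes of at least 300 kb, and the values for AP sites were 0.638 over 41374 genes and 0.445. Read against genes of their own length class, Grik2 and Grm5 were near the bottom, with 9.66% and 11.2% of the long genes lower for SSBs and 7.63% and 10.2% for AP sites. Grm7 and Grm8 stood in the lower part, with 24.4% and 24.6% of the long genes lower for SSBs. Grik1 (53.6%), Grin2a (57.5%) and Grid1 (64.7%) stood near the middle, and Grin2b was near the top, with 88.5% lower for SSBs and 85.6% for AP sites.

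**Figure D1:**
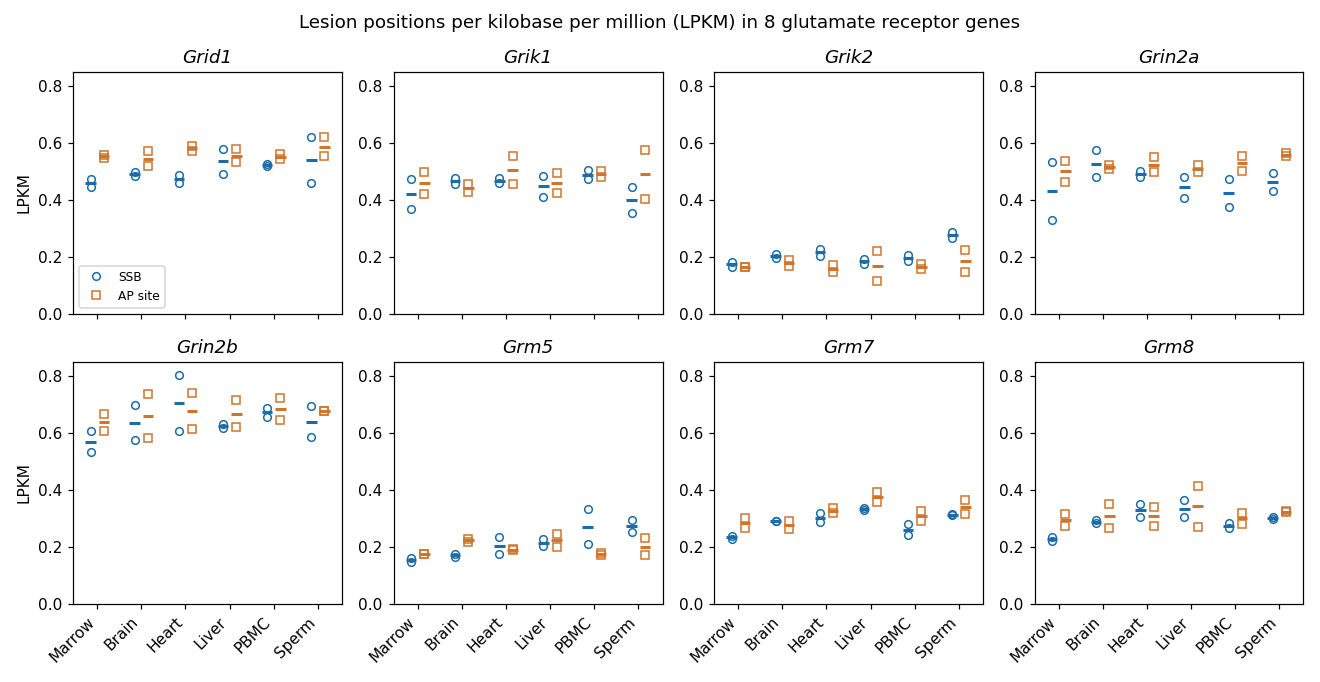
Lesion level of each of the 8 genes in each library, 1 panel per gene, with the level in LPKM on the vertical axis and the 6 tissues on the horizontal axis; circles (SSBs) and squares (AP sites) are the 2 libraries of a tissue and bars their mean. Grin2b stood highest and Grik2 and Grm5 lowest in both assays, and the bone marrow SSB points of Grm5, Grm7 and Grm8 lay below those of the other tissues.

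Lesions were spread unevenly within the genes, and in the same way for both assays. In bins of 20 kb, the Pearson correlation of SSB and AP levels along a gene was between 0.722 (Grik1, 19 bins) and 0.898 (Grik2, 34 bins). These are descriptions, since the bins of both assays share sequence and the ease with which reads can be placed there. Spearman rho ran from 0.695 in Grm7 to 0.908 in Grid1.

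The start of Grik2 and Grm8 was the densest place in each. The first 20 kb from the annotated start of Grik2 held 77 SSB and 93 AP positions over 12 libraries each, or 0.698 and 0.527 LPKM, against medians of 0.195 and 0.147 over all its bins. In Grm8 the first bin held 73 SSB and 136 AP positions (0.661 and 0.771 LPKM), against medians of 0.263 and 0.266. With the span cut into 5 equal segments, the first held 29.5% of the SSB and 31.7% of the AP positions of Grik2, and 30.4% and 30.5% of those of Grm8, where an even spread would give 20%. Grm7, the longest of the 8 genes, did not share this: its first segment held 18.1% and 17.8%, and segment 4, with 23.9% of the SSB and 26.2% of the AP positions, was the densest.

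For genes without a strand in the annotation used here, the segments run along the chromosome. Grid1 was densest in its first segment, with 31.8% of the SSB and 30.5% of the AP positions, and Grm5 in its last, with 28.0% and 30.3%. Grin2b was the most even, its segments holding between 17.9% and 22.6% of the SSB positions. The longest stretches without a lesion in any of the 24 libraries were 17041 bp in Grm5 (chr7:87898634-87915673), 15291 bp in Grik2 (chr10:49274970-49290259), 11988 bp in Grid1 and 10962 bp in Grm8, while in Grin2b none exceeded 3599 bp.

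**Figure D2:**
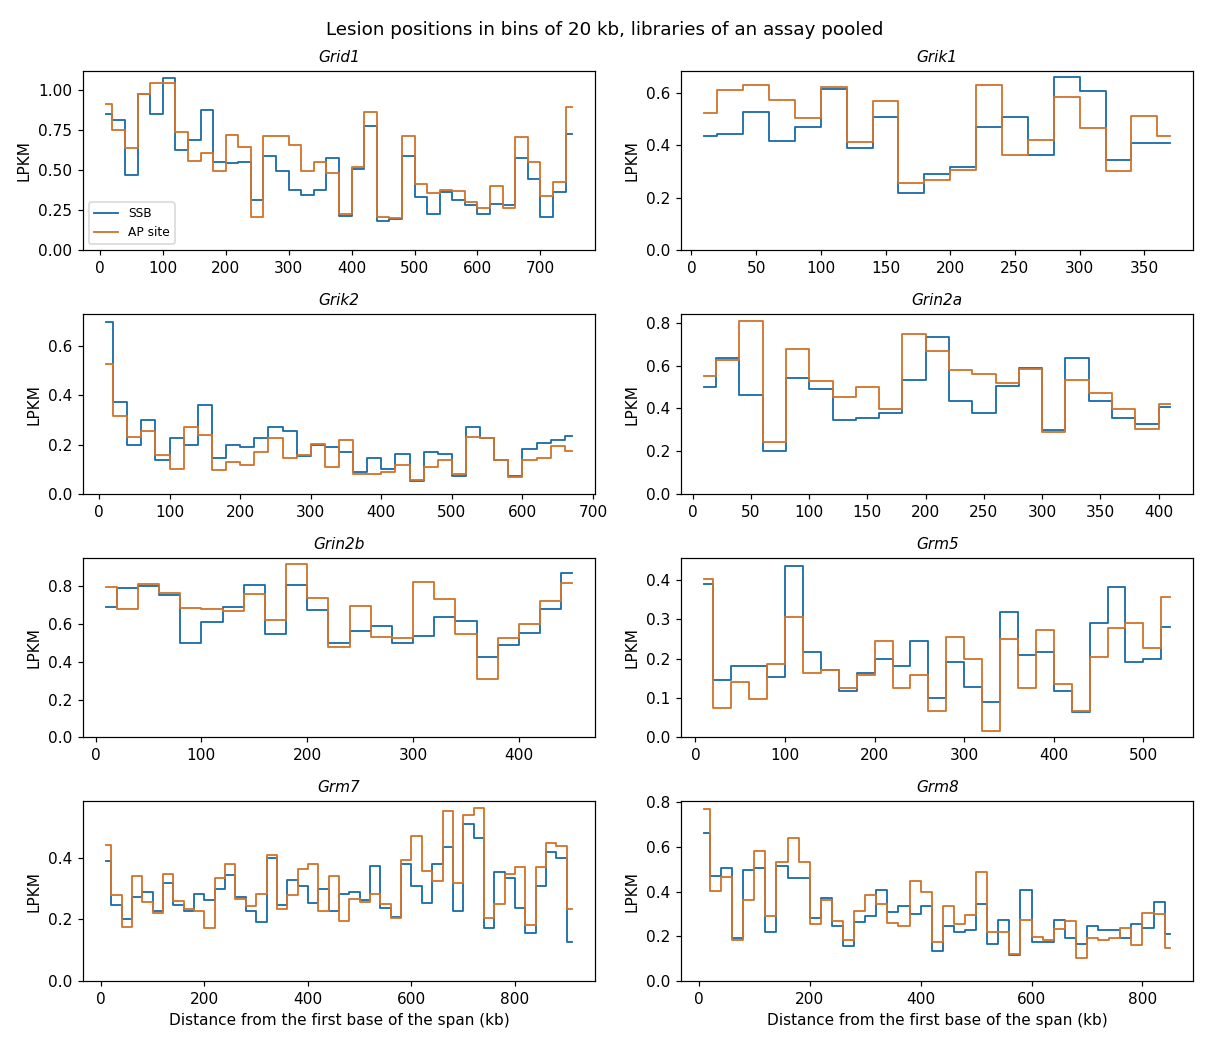
Lesion level in bins of 20 kb along each of the 8 genes, in LPKM pooled over 12 libraries per assay, against the distance in kb from the annotated start (Grik2, Grm7, Grm8) or from the lower end of the span (the other genes). SSB and AP lines followed each other in every gene, and Grik2 and Grm8 were highest in the first bin.

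Compared with 500 kb on either side, Grik2 stood out from sparse surroundings although it had the lowest level of its own: its level was 1.76 times that of its flanks for SSBs and 1.73 times for AP sites, and it was above them in 12 of 12 libraries of each assay. Grid1 (1.38 and 1.62 times) and Grin2b (1.36 and 1.47 times) were also above their flanks in 12 of 12 libraries of each assay. Grin2a was at 1.21 times in both assays, above in 10 of 12 SSB and 12 of 12 AP libraries. At this width Grm7, Grik1, Grm5 and Grm8 were near their flanks, with pooled SSB ratios of 0.970 to 1.08 and AP ratios of 0.903 to 1.14. With flanks of 1 Mb the SSB ratios of Grin2a and Grm7 fell to 0.931 and 0.915, and the ratio of Grm8 to 0.804, while that of Grik1 was 1.25. With flanks of 200 kb Grid1 was at 1.97 (SSBs) and 2.35 times (AP sites), beside 1.99 and 1.90 for Grik2, and Grm8 was at 1.25 and 1.34 times, above its flanks in 9 of 12 SSB and 12 of 12 AP libraries. The standing of a gene against its surroundings thus depended on the width of the flanks.

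Almost no nucleotide was hit repeatedly. Between 0.212% (Grm8) and 0.619% (Grik1) of the SSB nucleotides of a gene were found in more than 1 library, and between 0.638% (Grm5) and 1.61% (Grin2b) of the AP nucleotides. No SSB nucleotide of the 8 genes was found in more than 2 libraries. Grm8 had 4 AP nucleotides found in 3 libraries, and Grid1, Grik1 and Grin2b had 1 each. The highest count deposited at a nucleotide of these genes was 2.

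Whether the lesions of these genes differed between tissues was asked first for SSBs. Bone marrow had the lowest level: all 8 genes together were at 0.312 ± 0.0125 LPKM there (SD, n = 2), against means between 0.360 and 0.385 in the other 5 tissues. LPKM is a share of a library's positions, so a lower level need not mean fewer breaks per cell. The bone marrow libraries had 0.303 and 0.321 LPKM, below the lowest of the other 10, which had 0.346 (PBMC replicate 1). The remaining genes of at least 300 kb were also lower in bone marrow, with 0.373 ± 0.0102 LPKM against means of 0.401 to 0.433, and the ratio of the 8 genes to those long genes was 0.836 ± 0.0107 in bone marrow against means of 0.885 to 0.936.

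Among the genes chosen, the difference was clearest in Grm5, Grm7 and Grm8. Grm8 had 0.233 and 0.222 LPKM in the bone marrow libraries, 0.283 and 0.294 in brain, 0.352 and 0.307 in heart, 0.365 and 0.305 in liver, 0.284 and 0.266 in PBMCs and 0.298 and 0.305 in sperm. Both bone marrow values lay below all 10 others, and those of heart and liver were the highest. Grm7 had 0.229 and 0.239 LPKM in bone marrow, 0.291 and 0.290 in brain, 0.318 and 0.287 in heart, 0.328 and 0.338 in liver, 0.241 and 0.280 in PBMCs and 0.315 and 0.311 in sperm. Bone marrow was again below all others, by a narrow margin to PBMC replicate 1, and both liver libraries were above all others.

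Grm5 had 0.146 and 0.161 LPKM in bone marrow, 0.166 and 0.176 in brain, 0.175 and 0.235 in heart, 0.228 and 0.203 in liver, 0.210 and 0.332 in PBMCs and 0.295 and 0.254 in sperm. The bone marrow values were the lowest and brain came next, just above them, and the PBMC replicates lay far apart. Grik2 had 0.166 and 0.183 LPKM in bone marrow, 0.195 and 0.209 in brain, 0.228 and 0.204 in heart, 0.193 and 0.176 in liver, 0.185 and 0.207 in PBMCs and 0.287 and 0.268 in sperm. Here sperm stood above all other libraries, and bone marrow overlapped with liver.

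The other 4 genes overlapped more between tissues. Grin2a had 0.331 and 0.534 LPKM in bone marrow, a wider gap than that between the means of any 2 tissues, whose lowest was 0.424 in PBMCs and highest 0.527 in brain. Grik1 ranged from a mean of 0.400 in sperm to 0.489 in PBMCs, Grid1 from 0.459 in bone marrow to 0.541 in sperm, and Grin2b from 0.570 in bone marrow to 0.705 in heart. For each of them the highest tissue mean was 1.18 to 1.24 times the lowest, against 1.42 (Grm7), 1.47 (Grm8), 1.59 (Grik2) and 1.78 (Grm5).

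Ordered by their means, neighbouring tissues of Grm8 were separated between bone marrow and PBMCs, between brain and sperm and between sperm and heart, and those of Grm7 between bone marrow and PBMCs, between PBMCs and brain and between sperm and liver. Grm5 was separated only between bone marrow and brain, Grik2 only between heart and sperm, Grid1 only between brain and PBMCs and Grin2b only between bone marrow and liver. In Grik1 and Grin2a every pair of neighbouring tissues overlapped. With 2 libraries per tissue these separations are descriptions, and how often genes outside the family show them was not counted.

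Of the 8 genes, 3 (Grm5, Grm7 and Grm8) had both bone marrow SSB libraries below the other 10, as did 1.27% of all 38486 tested genes and 12.5% of the 590 long genes. For sperm above all others, 1 of 8 (Grik2) compared with 1.94% of all genes and 16.1% of the long genes, and for liver above all others, 1 of 8 (Grm7) compared with 1.35% of all genes and 0.508% of the long genes. The bone marrow and sperm patterns were thus also found in many other long genes.

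The test across the 6 tissues (edgeR's quasi-likelihood F test, Benjamini-Hochberg adjustment over all genes tested) called 0 of the 8 genes for SSBs, against 0.125% of 38486 genes (48 genes, 40 of them among the long ones). Before adjustment 5 of the 8 had p under 0.05, as did 1867 of the 38486 genes. Grm8 (adjusted p = 0.0572), Grm5 (0.0679) and Grm7 (0.0843) were the nearest to the threshold, followed by Grik2 (0.325), and none of the 18 relatives passed. The kainate receptor gene Grik4, among the longest 3 relatives, had an adjusted p of 0.992. DESeq2 called 4 genes and limma 255, with no member among them. The calls for Grm8 and Grm5 crossed the threshold under single alternatives, with adjusted p between 0.0304 and 1 for Grm8 and between 0.0172 and 1 for Grm5.

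In the contrast of bone marrow with the mean of the other 5 tissues, all 8 genes were lower, with log2 differences from -0.28 (Grid1) to -0.72 (Grm5). Their median was -0.39, against 0.04 over all genes tested and -0.31 over the long genes. Grm8 fell by 0.53 ± 0.13 on the log2 scale (SE; edgeR adjusted p = 0.0456) and was the 1 gene of the 8 called lower, against 0.166% of all genes. Grm5 (-0.72 ± 0.19, adjusted p = 0.0714) and Grm7 (-0.49 ± 0.13, adjusted p = 0.0714) missed the threshold narrowly, and the differences of Grik2 (-0.44 ± 0.17), Grin2a (-0.35 ± 0.15), Grik1 (-0.29 ± 0.15), Grin2b (-0.29 ± 0.12) and Grid1 (-0.28 ± 0.11) had adjusted p between 0.481 and 0.755.

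The call of Grm8 was lost in 16 of 23 alternatives, with adjusted p from 0.0274 to 1, while its difference stayed between -0.60 and -0.35. Of the single libraries left out, it held only without brain replicate 1, liver replicate 2 or PBMC replicate 1. Without TMM scaling the median of all genes moved from 0.04 to 0.16, and all 8 genes were still lower, with a median of -0.26, but none was called (Grm8 -0.40, adjusted p = 0.268); the split of calls over all genes moved from 9 higher and 64 lower to 21 higher and 8 lower. DESeq2 called 2 genes and limma 46, none of them a member. Among the long genes 57 were called lower and 0 higher, which is 9.66%. Of the 18 relatives, 13 were lower in bone marrow, with Grik4 at -0.06 ± 0.11 (edgeR adjusted p = 1). As among the 8 genes, 1 relative was called (edgeR adjusted p = 0.0454), and that call was lost in 18 of 23 alternatives.

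**Figure D3:**
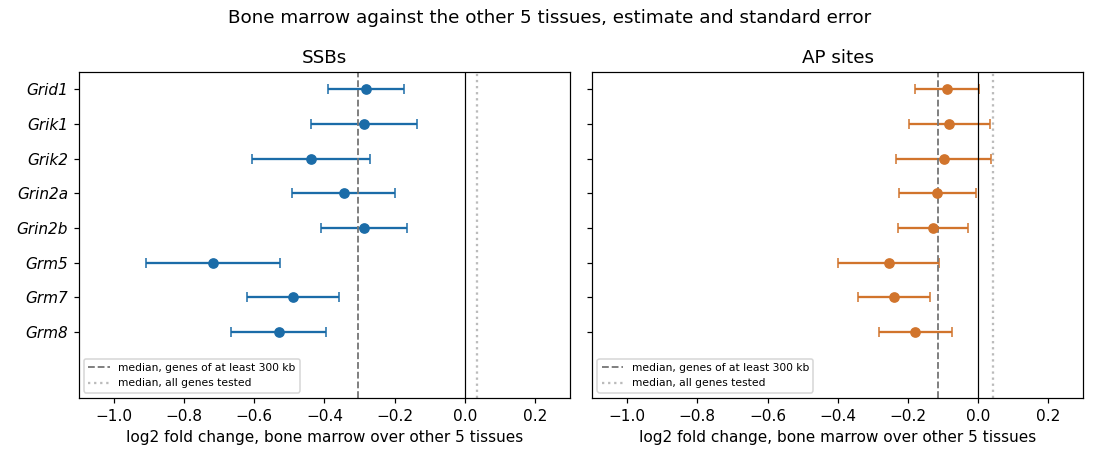
Log2 difference between bone marrow and the mean of the other 5 tissues for each of the 8 genes (points, with bars of 1 standard error from edgeR), for SSBs and AP sites, with the medians over all genes tested (dotted line) and over genes of at least 300 kb (dashed line). All 8 points lay below 0 in both panels, from -0.72 to -0.28 in the SSB panel and from -0.26 to -0.08 in the AP panel, and only Grm8 passed the threshold, for SSBs.

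Against the other tissues, brain, in which these receptors are used, called 0 of 8 genes for SSBs and 0% of all genes. The differences there ran from -0.32 ± 0.16 (Grm5) to 0.25 ± 0.12 (Grin2a), with 1 of 8 lower, or 4 of 8 without TMM, and 1885 genes had p under 0.05 before adjustment. Heart called 0 of 8 and 0.0078% of all genes, and Grm8 was highest at 0.28 ± 0.10 (edgeR adjusted p = 0.714). Liver called 0 of 8 and 0% of all genes (1835 with unadjusted p under 0.05), with Grm7 at 0.31 ± 0.10 and Grm8 at 0.28 ± 0.11 (both adjusted p = 0.974), and 1 of 8 lower, or 4 of 8 without TMM.

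PBMCs likewise called 0 of 8 and 0% (1552 with unadjusted p under 0.05), with Grm5 highest at 0.39 ± 0.18 (edgeR adjusted p = 1) and 5 of 8 lower. Sperm called 0 of 8 and 0.0208% of all genes, all 8 of these called genes being long and higher. Grik2, whose sperm libraries stood above all others, had the largest difference of the 8 there, 0.56 ± 0.15 (edgeR adjusted p = 0.275), followed by Grm5 with 0.49 ± 0.17 (adjusted p = 0.619). In these 5 contrasts DESeq2 called 0 genes except 14 in sperm, limma called 0 to 211, and neither called a member. The median difference of the 8 genes was 0.05 in brain, 0.16 in heart, 0.04 in liver, -0.09 in PBMCs and 0.14 in sperm, beside medians over the long genes of 0.07, 0.10, 0.04, -0.06 and 0.15. No relative was called in these contrasts either, and Grik4 was at -0.20 ± 0.10 in brain and 0.12 ± 0.12 in sperm (edgeR adjusted p = 0.939 and 0.973).

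For AP sites the tissues lay closer together. The highest tissue mean of a gene was 1.07 (Grin2b) to 1.35 (Grm7) times its lowest. The AP libraries were also deeper (median 739741 positions against 410489 for SSBs), and counting error is smaller at greater depth. Whether depth accounts for the narrower range was not tested. No gene of the 8 had both libraries of a tissue above or below the other 10. Per tissue and direction, 0.631% to 2.29% of all 41374 tested genes and 0.508% to 3.73% of the long genes did, so none of 8 is near these shares. Grm7 ranged from 0.278 ± 0.0197 LPKM in brain (0.264 and 0.292) to 0.376 ± 0.0259 in liver (0.394 and 0.358), and bone marrow, with 0.267 and 0.301, overlapped with brain. Grm8 had 0.315 and 0.274 LPKM in bone marrow and 0.416 and 0.270 in liver, so that the liver replicates enclosed the bone marrow values. Grm5 had 0.177 and 0.175 LPKM in bone marrow, 0.179 and 0.172 in PBMCs, 0.189 and 0.191 in heart, 0.171 and 0.231 in sperm, 0.227 and 0.219 in brain and 0.246 and 0.201 in liver. Grik2 had 0.165 and 0.165 LPKM in bone marrow and 0.146 and 0.224 in sperm, and its sperm libraries enclosed those of every other tissue except liver (0.221 and 0.115).

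The F test across the 6 tissues called 0 of 8 genes and 0% of 41374 genes for AP sites (1219 with unadjusted p under 0.05; DESeq2 0, limma 209 without a member), and Grm7 was the only member with p under 0.05 before adjustment. Each of the 6 contrasts of a single tissue also called 0 of 8 and 0% with edgeR (1555 to 1819 genes with unadjusted p under 0.05; DESeq2 at most 1 gene, limma 42 to 250, no member among them). In bone marrow all 8 differences were negative again, from -0.26 ± 0.14 (Grm5) to -0.08 ± 0.12 (Grik1), with a median of -0.12 against 0.04 over all genes and -0.12 over the long genes. No relative was called for AP sites in any of these tests, and in bone marrow 10 of the 18 were lower, with Grik4 at -0.04 ± 0.10. Whether the tissue pattern of a gene differed between the assays was tested with an interaction term over all 24 libraries, which called 0 of 8 and 0% of 41210 genes (1556 with unadjusted p under 0.05; DESeq2 0, limma 81 without a member). Grm5 had the smallest unadjusted p of the 8 (0.00239; edgeR adjusted p = 1).

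SSBs and AP sites of the same DNA sample were then compared, as shares of each library. Grid1 had relatively fewer SSBs, with a ratio of SSB to AP level below 1 in 11 of 12 DNA samples and a median ratio of 0.896 (0.780 to 1.003). Grin2a was below 1 in 11 of 12 (median 0.896, 0.714 to 1.10) and Grm7 in 10 of 12 (median 0.924, 0.736 to 1.10). Grik2 went the other way, above 1 in 11 of 12 with a median of 1.18 (0.873 to 1.97). Grm5 was evenly split, below 1 in 6 of 12, and spread most widely, from 0.730 to 1.93.

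In the fit over both assays 3 of the 8 genes were called, against 1.02% of 41210 genes and 20.3% of the long genes. They were Grid1 (-0.25 ± 0.06, edgeR adjusted p = 0.00607), Grin2a (-0.27 ± 0.07, adjusted p = 0.0183) and Grm7 (-0.22 ± 0.06, adjusted p = 0.0474), all with fewer SSBs. Grm8 (-0.18 ± 0.07), Grik1 (-0.17 ± 0.07) and Grin2b (-0.15 ± 0.06) were in the same direction without passing, Grik2 was at 0.21 ± 0.08 (adjusted p = 0.221) and Grm5 at 0.03 ± 0.08. The median of the 8 was -0.17, against -0.08 over all genes and -0.14 over the long genes, of which 120 were called lower and 0 higher.

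With the DNA sample as a block, Grid1 (edgeR adjusted p = 0.0115) and Grin2a (0.0439) kept their calls and Grm7 lost its call (0.0867). The Grm7 call was lost in 18 of 24 alternatives (adjusted p from 0.0154 to 0.847), and of the single DNA samples left out it held only without brain replicate 1 or 2, liver replicate 2 or sperm replicate 1. The Grin2a call was lost in 8 of 24, among them without bone marrow replicate 1 (0.0979) and without PBMC replicate 1 (0.0697), and the Grid1 call in 4 of 24. The scaling changed more of the calls: without TMM the median of all genes moved from -0.08 to 0.01, the calls changed from 93 higher and 326 lower to 143 higher and 74 lower, and of the 8 genes only Grik2 was called, higher by 0.30 (adjusted p = 0.0303), while Grid1 stood at -0.16 (adjusted p = 0.143). DESeq2, under which the median of all genes was 0.03, called Grid1 alone (adjusted p = 0.0467), and without the bone marrow libraries none was called (Grid1 adjusted p = 0.0575). Of the 18 relatives, Gria1, an AMPA receptor subunit gene, and Grik4 were called, with -0.30 ± 0.07 (edgeR adjusted p = 0.00722) and -0.28 ± 0.06 (adjusted p = 0.00230). Depth, too, differed between the assays, and at equal depth 0 members were called, of 17 genes in all (2324 with unadjusted p under 0.05).

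Each position carried a strand of the reference genome, which allowed both strands of a gene to be compared. The sources used here do not state whether it is the strand carrying the lesion or its complement. Every strand direction given here could therefore be inverted. For the 3 genes whose annotated strand was at hand, 0 of 3 differed for SSBs by edgeR, against 2.57% of 25415 genes, of which 638 of 654 had more SSBs on the annotated strand. Their log2 ratios of annotated to opposite strand were 0.25 ± 0.10 in Grik2 (adjusted p = 0.236, unadjusted p = 0.0165), 0.14 ± 0.08 in Grm8 and 0.06 ± 0.08 in Grm7. For AP sites 0 of 3 were called, against 0.0577% of 26017 genes, and Grm8 had the largest ratio, 0.18 ± 0.06 (adjusted p = 0.362, unadjusted p = 0.00341). Of the relatives with a strand, Grm3, a group II metabotropic receptor gene, had fewer SSBs on its annotated strand (-0.72 ± 0.14, edgeR adjusted p = 0.000128).

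For all 8 genes the plus and minus strands of the reference were compared, a test added after the data had been seen. In Grid1 SSBs were uneven: 1226 lay on the plus and 894 on the minus strand, 57.8% plus, where whole SSB libraries had 50.2% to 50.6%. The plus share of Grid1 was 54.8% and 40.0% in the bone marrow libraries, 60.4% and 54.2% in brain, 52.9% and 61.4% in heart, 65.0% and 58.0% in liver, 65.2% and 57.7% in PBMCs and 52.8% and 65.3% in sperm. It was above 50% in 11 of 12 libraries, bone marrow replicate 2 being the exception, and pooled by tissue it was 50% in bone marrow and 56.3% to 61.1% in the others. AP sites of Grid1 were even, with 1899 plus and 1905 minus positions (49.9% plus, library range 43.7% to 54.8%).

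The log2 ratio of plus to minus SSBs in Grid1 was 0.43 ± 0.06 (edgeR adjusted p = 6.4e-08; 1.3e-09 to 0.00503 over 20 alternatives). Grin2b leaned the other way, with 735 plus and 882 minus positions (45.5% plus, below 50% in 10 of 12 libraries) and a ratio of -0.28 ± 0.07 (adjusted p = 0.0102), a call that was lost at equal depth (0.516), without heart replicate 2 (0.235) and without liver replicate 1 (0.0705). Thus 2 of the 8 genes were called, against 2.01% of all genes and 26.4% of the long genes, among which 79 leaned to the plus and 77 to the minus strand. Grin2a (-0.27 ± 0.09, edgeR adjusted p = 0.0826) and Grik2 (-0.27 ± 0.10, adjusted p = 0.192) came next, and Grm5 and Grm7 were at 0.05 ± 0.11 and 0.04 ± 0.08. Of the relatives 1 of 18 was called, Grm3 (0.69 ± 0.14, adjusted p = 0.000334), the gene that also differed by its annotated strand.

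For AP sites 0 of the 8 genes were called by edgeR, against 0.0121% of 41374 genes. Before adjustment 2 of the 8 had p under 0.05, as did 2179 of the 41374 genes. Grm8, with 46.8% of its AP positions on the plus strand, was the nearest (-0.24 ± 0.06, adjusted p = 0.199), and Grid1 was at -0.06 ± 0.05. The difference between the assays was tested by a term of strand and assay over all 24 libraries, also added after the data had been seen. It called 1 of the 8 genes, against 0.515% of 37855 genes and 6.44% of the long genes: in Grid1 the plus to minus ratio was 0.49 ± 0.08 higher for SSBs than for AP sites (edgeR adjusted p = 1.28e-05). At equal depth the estimate was 0.46 and the adjusted p 0.167. The next was Grin2a (-0.36 ± 0.11, adjusted p = 0.121), and the other 6 had adjusted p of 0.478 or more.

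**Figure D4:**
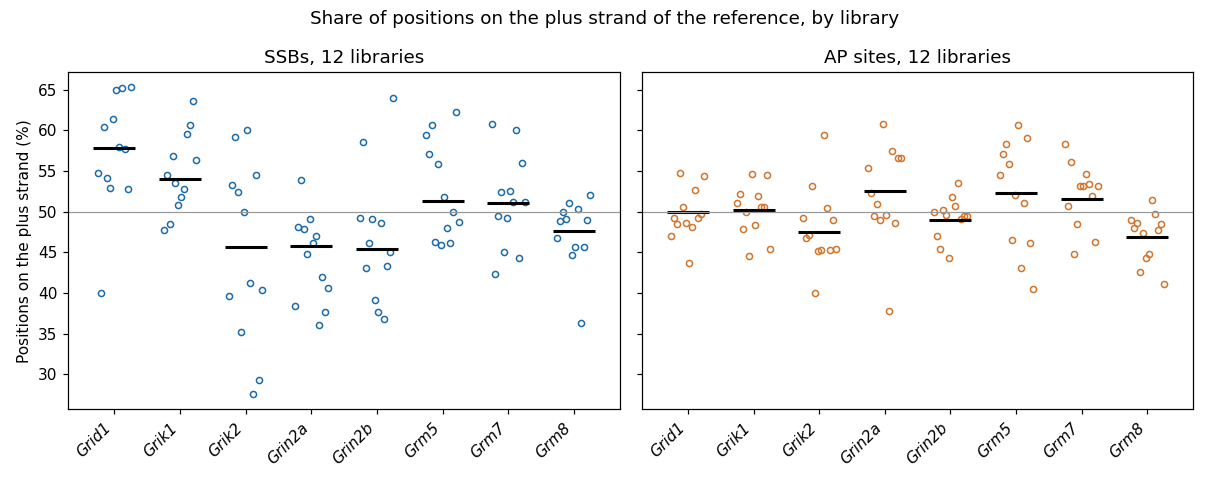
Percent of lesion positions on the plus strand of the reference in each of the 8 genes, for SSBs and AP sites in separate panels; each point is a library and each bar the share over all 12 libraries pooled. Grid1 stood above 50% in 11 of 12 SSB libraries but only 4 of 12 AP libraries, and Grin2b stood below 50% in 10 of 12 SSB libraries.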

How the data were processed

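Each library came as a deposited list of lesion nucleotides (mm10/GRCm38 per the labels) in which the authors gave strand and raw count, neither normalized nor pooled. The aligner and filters were not given in the sources used here, and RSEM 1.2.28, named in the submitters' processing notes, belongs to the 12 RNA samples, which were not used here. Lesions that reads cannot be placed at, in repeats for example, are missing from any gene's level.

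Each position was counted once per gene span (RefSeq, GRCm38), as the counts were above 1 at few positions, and 49943 genes were counted. Exons were not at hand in the annotation used here, so whole spans were taken. Genes with a position in at least 20% of the libraries fitted were tested by edgeR 4.0.16 (quasi-likelihood F test, TMM, R 4.3.3) with Benjamini-Hochberg adjustment and a threshold of 0.05. A tissue contrast set 1 tissue against the mean of the other 5. The labels state that 2 male mice gave all the tissues, so libraries of different tissues share animals. The main tissue fits had no term for the animal. Standard errors were derived from the log2 difference and its p. Strand fits had the library as a block. DESeq2 1.42.0 and limma 3.58.1 on log2(LPKM + 0.05) were alternatives, as were no TMM, no filter, an 80% filter, thinning to 225011 positions, summed counts, positions within 10 bp merged, autosomes only, a replicate block, and leaving out libraries, bone marrow or sperm. The tests of reference strand and their alternatives were added after the data were seen. Counting and plots used Python 3.11.15, with scipy 1.17.1, pandas 2.3.3, matplotlib 3.10.9 and numpy 2.4.6. Some of the fits were also run on simulated data. The outcome is not given here, so those runs do not bear on the values reported.

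The labels state that SSB and AP libraries of a number share a DNA sample, so those were paired (correlations of their deviations from the tissue means were -0.02 to 0.03 over 6 tissues). Of the smaller list of a replicate pair, 0.0958% to 0.396% was also in the larger, so no library was a copy of its replicate. Whole lists of different tissues or assays were not compared in this way.

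The 8 genes and the lists were chosen with earlier results of these data known. All 8 were named in every result. Of the 18 relatives, those past the threshold were named, and the longest 3 otherwise, except for items that are not reported here. Genes of like pattern were the 5 of highest Pearson r among those of at least 20 mean positions. Intervals, floors and errors cover counting and replicate spread only. With 21 to 456 positions per gene and library, small differences were not detectable.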

Additional observations from a re-analysis of the deposited data

Results flagged for a closer look

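Grid1 differed between the 2 assays by a test of the difference itself: its log2 ratio of plus to minus strand positions was 0.49 higher for SSBs than for AP sites (standard error 0.08, edgeR adjusted p = 1.28e-05). The plus share was 57.8% for SSBs and 49.9% for AP sites. It held in 5 of 6 alternatives, with adjusted p from 7.27e-06 to 0.167, and was lost at equal depth. In bone marrow the SSB plus share was 54.8% and 40% in the 2 libraries; a difference between tissues in the strand was not tested, and the estimate without bone marrow was 0.53.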

How the results depend on the processing

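Of the 18 tested comparisons set out at the start, 15 called the same number of the 8 genes in every alternative (0 each). The others were as follows, as members called.

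For SSBs across the 6 tissues (0), the 80% filter, autosomes only and the replicate block gave 1 each, and leaving out a library gave 0 to 1 (Grm5 without PBMC replicate 1). For SSBs of bone marrow (1), DESeq2, no TMM, equal depth, summed counts, merged positions, limma and no sperm libraries gave 0 each, and leaving out a library gave 0 to 3. Without bone marrow replicate 1, replicate 2 stands alone and is assumed to vary like the other tissues; Grin2a then turned to 0.0405 (-0.613 without bone marrow replicate 2), and without PBMC replicate 1 Grm5, Grm7 and Grm8 were called. For SSBs against AP sites (3), the 80% filter, merged positions, autosomes only and the DNA sample as block gave 2 (Grm7 lost, adjusted p 0.0735, 0.0702, 0.0572 and 0.0867), DESeq2, no TMM and no sperm libraries 1, equal depth, limma and no bone marrow libraries 0, and leaving out a DNA sample 1 to 3; Grin2b turned to 0.00946 at equal depth. For the SSB plus against minus strand (2), equal depth gave 1 and leaving out a library 1 to 3. For the difference between assays in the strand (1), equal depth gave 0, and Grik1 turned to -0.0140. Of the relatives in the SSB bone marrow contrast (1), 18 of 23 alternatives gave 0: DESeq2, no TMM, no filter, equal depth, summed counts, merged positions, the replicate block, limma, no sperm libraries and 9 of the libraries left out (range 0 to 1). The count past the threshold over all genes, 73 for this contrast, ran from 0 without bone marrow replicate 1 to 96 without PBMC replicate 1. The causes were not tested, apart from fewer libraries where libraries were left out.

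The sources used here do not state which replicate number is which animal across tissues, so the number was not taken as an animal. Deviations of libraries of 1 number in different tissues had correlations of -0.19 to 0.13 over 15 pairs per assay. These values cannot decide whether a number is an animal, since SSB and AP libraries of the same DNA sample also gave only -0.02 to 0.03. With the replicate block, Grm8 had an adjusted p of 0.0304 across the tissues and 0.0274 in bone marrow (68 calls over all genes), and 0 members were called in the other tissue contrasts; with the DNA sample as block, 2 were called between assays (307 over all genes).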

Other observations

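The SSB level of the 8 genes summed, over 12 libraries, was most like that of Tspan5, a tetraspanin gene (Pearson r 0.912, Spearman rho 0.790), Npsr1, the neuropeptide S receptor gene (0.884 and 0.706), Ephb1, an ephrin receptor gene (0.880 and 0.874), Nyap2 (0.863 and 0.853) and Rbfox1, a splicing factor gene (0.860 and 0.825), out of 3210 candidate genes. All were lowest in bone marrow, for example Rbfox1 with 0.396 LPKM there and 0.455 to 0.537 in the other tissues. Without the 2 libraries farthest from the median, r was 0.717 to 0.830. All genes of a library share its depth, and the genes were picked as the highest of many, so the values are descriptions.

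Among the 8 genes themselves, the 28 pairwise correlations of level over the 12 libraries ran from -0.39 to 0.81 for SSBs (median 0.28, 25 positive) and from -0.34 to 0.67 for AP sites (median 0.20, 20 positive).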
